A study of Homo sapiens with 8 samples.

Results

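INHBE, GDF15, STC2, NUCB2, S100P and TNFSF15, 6 genes that code for released proteins, were followed in HT1080 human fibrosarcoma cells given 2-deoxy-D-glucose (2DG) and 3 inhibitors of the unfolded protein response (UPR). The genes were chosen by their values in an earlier reading of these same arrays, mainly their differences with 2DG and with the compounds, so their levels are given as a description and none was tested. Every probe set that the platform annotation maps to them was read. There were 11 such probe sets among 54613, and 7 of the 11 reached a log2 value of 6 on at least 1 array, the limit used to call a probe set measured. All 6 genes kept at least 1 probe set, out of 8429 measured genes.

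The arrays were Affymetrix GeneChip Human Genome U133 Plus 2.0, which read each transcript with a group of short probes called a probe set. There were 8 arrays, 1 for each condition. Of these, 4 held cells in 10 mM 2DG, a glucose analogue that blocks glycolysis and protein glycosylation, together with 10 µM compound C (2DG+CC), 10 µM versipelostatin (2DG+VST) or 100 µM phenformin (2DG+Phen), or with 2DG alone. The other 4 held cells in normal growth medium with compound C (CC), versipelostatin (VST) or phenformin (Phen) at the same dose, or with none (control). Treatment lasted 18 h in all of them. Compound C, also known as dorsomorphin, inhibits AMP-activated protein kinase and BMP receptors, versipelostatin is a macrocyclic product, and phenformin is a biguanide. Compound C and versipelostatin were dissolved in DMSO and the other agents in water, and no source used here says whether the control culture received DMSO. All conditions share 1 cell line, and with 1 array each no difference below has an error, a p-value or a replicate check.

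The proteins belong to different families but are all known as signals that cells give out. INHBE codes for the beta E subunit of the activin and inhibin family and GDF15 for a distant member of the TGF-beta family that acts on the hindbrain to lower appetite. STC2 codes for a stanniocalcin, a secreted glycoprotein that blocks the protease PAPP-A. NUCB2 makes a calcium-binding protein of the secretory pathway from which the peptide nesfatin is cut, S100P a small calcium-binding protein that binds the receptor RAGE, and TNFSF15 the TNF family cytokine TL1A. INHBE, GDF15 and STC2 are known targets of the stress pathway in which the kinase PERK raises the transcription factor ATF4, while NUCB2 is not usually counted among them. A bulk array cannot tell less RNA per cell from fewer cells that make it.

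Values are log2 signals, and a difference of 1 stands for 2-fold. The median over all probe sets was between 3.12 and 3.28 on the 8 arrays, and a value under the median of its own array was taken as not above background. The poly-A control transcripts, which are spiked into RNA before labelling, were higher than on the control array by 1.36 with 2DG+CC, 0.93 with 2DG+VST, 0.76 with 2DG+Phen and 0.33 with 2DG alone, and by 0.12, 0.01 and 0.30 with CC, VST and Phen in normal medium. Their part in the differences below was not tested, except that the 10 comparisons of the 6 genes were recomputed with the arrays scaled on them. Of 8 mesenchymal markers 6 passed the limit of 6 on every array, among them VIM at 13.24 to 13.65, while S100A4 and THY1 did not reach it on any. The epithelial markers EPCAM and CDH1 stayed at or under 2.89, whereas KRT8 and KRT18 were at 8.03 or more on every array. None of 3 leukocyte and 3 endothelial markers reached the limit.

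INHBE was high after 2DG or any of the 3 compounds by itself and low when 2DG and a compound were given together. Its probe set (210587_at) gave 3.49 with 2DG+CC, 3.91 with 2DG+VST, 4.07 with 2DG+Phen and 7.94 with 2DG alone. In normal medium it gave 8.30 with CC, 8.89 with VST, 7.25 with Phen and 5.00 in control. The 4 arrays with a single agent were thus the highest and the 3 arrays with a combination the lowest, all 3 below the control array. The difference from control was 2.94 in 2DG (7.66-fold), 3.3 with CC (9.84-fold), 3.89 with VST (14.8-fold) and 2.25 with Phen (4.75-fold). Of 8429 genes, 3 had a larger positive difference than INHBE in 2DG, 4 with CC, 1 with VST and 9 with Phen. The gene lies at chr12:57455307-57458025 (GRCh38.p14).

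In 2DG with any of the compounds, the INHBE signal was a small part of that with 2DG alone. The difference from 2DG alone was −4.45 with CC, −4.03 with VST and −3.87 with Phen, which left 4.57%, 6.13% and 6.85% of the 2DG level. These are the smallest remaining shares among the 6 genes for CC, VST and Phen. On these combination arrays INHBE stood at percentiles 54.4, 60.3 and 62.1 of all probe sets, not far above the array medians. The remaining shares are therefore rough. The 3 combination arrays spanned 0.58 for INHBE. The median absolute difference of all genes from 2DG alone was 0.65 with CC, 0.50 with VST and 0.54 with Phen. With 1 array each, no order among the 3 combinations is read from this.

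**Figure D1:**
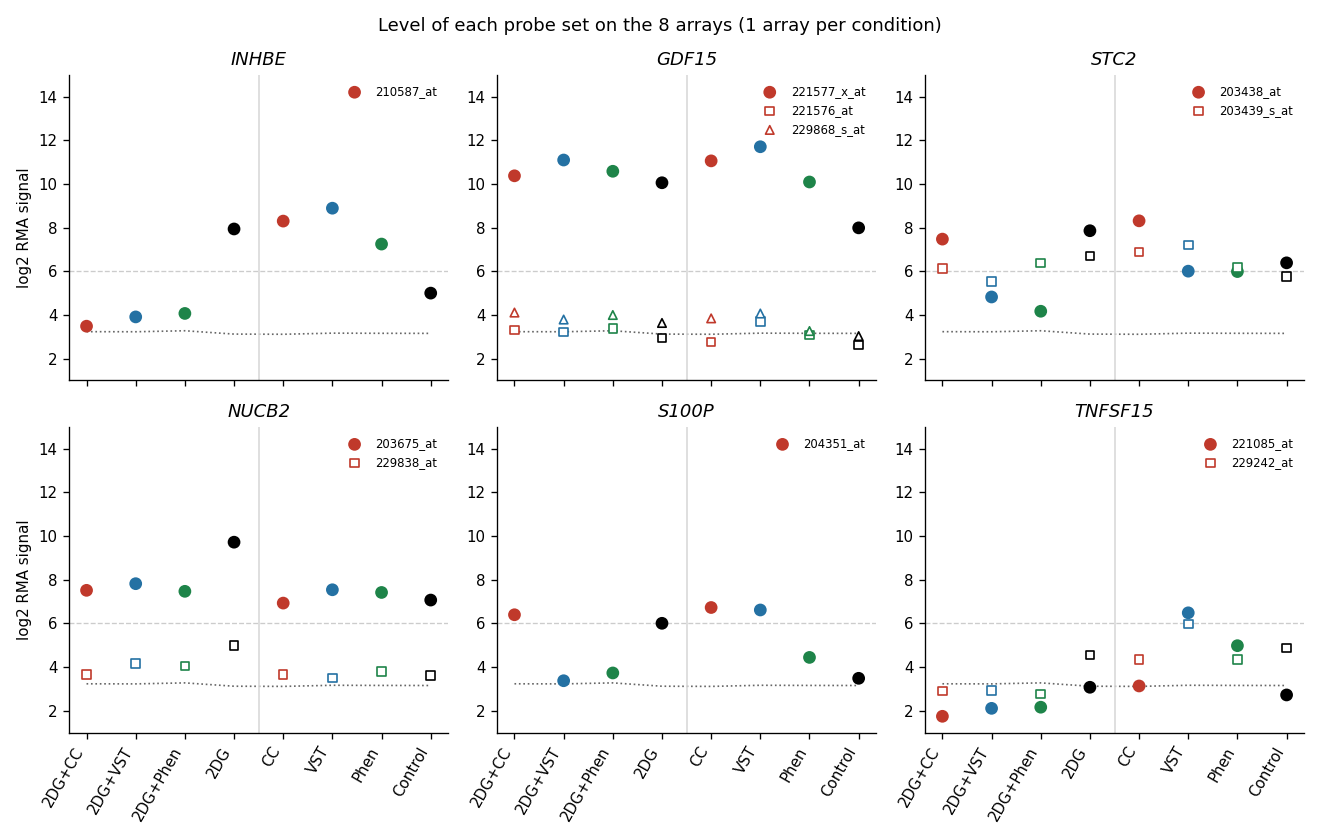
Log2 RMA signal (y axis) of every probe set of the 6 genes on the 8 arrays (x axis), with 2DG arrays left of the vertical line and normal medium right of it, 1 array per point, coloured by compound (red CC, blue VST, green Phen, black none). Filled circles are the probe set that represents the gene, open markers its other probe sets, the dashed line the limit of 6 and the dotted line the median of each array; INHBE drops to between 3.49 and 4.07 on the combination arrays while GDF15 stays between 10.37 and 11.10.

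GDF15 was also high after each single agent, but it stayed high when 2DG and a compound were combined. Its probe set 221577_x_at gave 10.37 with 2DG+CC, 11.10 with 2DG+VST, 10.58 with 2DG+Phen and 10.06 with 2DG alone. In normal medium it gave 11.06 with CC, 11.71 with VST, 10.09 with Phen and 7.99 in control. The control array stood apart from the other 7, which lay within 1.65 of each other (lowest 10.06, highest 11.71). Over control the signal was 4.19-fold higher in 2DG, 8.39-fold with CC, 13.1-fold with VST and 4.29-fold with Phen. It was 5.22-fold higher with 2DG+CC, 8.62-fold with 2DG+VST and 6.03-fold with 2DG+Phen.

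Set against 2DG alone, GDF15 differed by 0.32 with CC, 1.04 with VST and 0.53 with Phen. Scaled on the poly-A controls, these became −0.72, 0.44 and 0.09, so the first turned negative and the 2-fold call with VST was lost. The signal rests on a probe set whose suffix _x_at marks probes that may match other transcripts. The other GDF15 probe sets, 221576_at and 229868_s_at, never passed 3.70 and 4.11. On 229868_s_at the differences from control were 0.60 in 2DG, 0.81 with CC, 1.03 with VST and 0.23 with Phen, of which the last was −0.07 after that scaling.

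The GDF15 promoter is shown for the gene that stayed high. The 300 bases around its start (250 before the RefSeq start to 50 after) lie at chr19:18385908-18386207, plus strand, GRCh38.p14. The capitals mark TATAAA, 29 to 24 bases before the start, and a CCAAT box on the opposite strand at 103 to 99 bases before it.
GDF15: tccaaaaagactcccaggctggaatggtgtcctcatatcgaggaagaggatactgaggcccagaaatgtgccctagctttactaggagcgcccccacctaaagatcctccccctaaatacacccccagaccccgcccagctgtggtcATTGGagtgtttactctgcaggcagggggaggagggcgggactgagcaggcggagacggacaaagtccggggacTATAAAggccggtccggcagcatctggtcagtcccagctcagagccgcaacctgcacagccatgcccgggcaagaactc
TATAAA is held by 11.5% and CCAAT by 34.6% of 35116 RefSeq promoter windows of this length, both strands read.

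STC2 was higher with CC than with VST or Phen on the brighter of its probe sets. The probe sets were nearly equal in brightness, with means over the 8 arrays of 6.38 (203438_at) and 6.35 (203439_s_at). On the arrays with VST or Phen, with or without 2DG, 203439_s_at read higher, so "brighter" names the mean only. On its brighter probe set (203438_at) it gave 7.47 with 2DG+CC, 4.83 with 2DG+VST, 4.17 with 2DG+Phen and 7.86 with 2DG alone. In normal medium it gave 8.31 with CC, 6.01 with VST, 5.99 with Phen and 6.39 in control. The 2 CC arrays and the array with 2DG alone were the highest, and 2DG+VST and 2DG+Phen lay below every array in normal medium. From control, STC2 differed by 1.47 in 2DG and 1.92 with CC, but by −0.38 with VST and −0.40 with Phen. Of the 2DG level, 76.6% remained with CC, 12.2% with VST and 7.76% with Phen. On the poly-A scale the STC2 difference with CC, −0.38 from 2DG alone as deposited, was −1.42 and so past 2-fold.

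The other STC2 probe set (203439_s_at) did not give the same picture. It read 6.12 with 2DG+CC, 5.53 with 2DG+VST, 6.38 with 2DG+Phen and 6.70 with 2DG alone, and 6.87, 7.22, 6.18 and 5.76 with CC, VST, Phen and control in normal medium. On it, VST alone was 1.46 above control and 2DG+Phen was only −0.32 from 2DG alone, where the brighter probe set gave −3.69. Both probe sets had a 2DG signal above control (1.47 and 0.95) and a 2DG+VST signal below 2DG alone (−3.03 and −1.17). They agreed in sign in 7 of 10 comparisons, and the 3 that differed were VST against control, Phen against control and 2DG+Phen against Phen. The order of CC and VST in normal medium therefore also differs with the probe set. The STC2 promoter window at chr5:173328365-173328664 (minus strand) has no TATAAA, and its capitals mark a CCAAT box on the opposite strand, 100 to 96 bases before the start.
STC2: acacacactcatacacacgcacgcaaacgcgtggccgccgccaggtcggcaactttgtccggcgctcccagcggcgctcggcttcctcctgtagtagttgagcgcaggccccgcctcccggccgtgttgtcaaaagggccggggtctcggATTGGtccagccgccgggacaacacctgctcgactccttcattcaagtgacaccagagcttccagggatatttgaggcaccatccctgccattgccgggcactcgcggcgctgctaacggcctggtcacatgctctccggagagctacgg

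NUCB2 was high with 2DG alone and near its control level on the other 6 treated arrays. Probe set 203675_at gave 7.52 with 2DG+CC, 7.82 with 2DG+VST, 7.47 with 2DG+Phen and 9.72 with 2DG alone. In normal medium it gave 6.93 with CC, 7.54 with VST, 7.42 with Phen and 7.07 in control. The array with 2DG alone stood 1.90 above the next highest (7.82 with 2DG+VST), and the other 7 lay within 0.89 of each other. In 2DG the gene was 6.28-fold higher than in control, with 7 of 8429 genes having a larger difference. No compound moved it by 2-fold in normal medium (−0.14, 0.47 and 0.35 for CC, VST and Phen).

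In 2DG the 3 compounds left 21.7%, 26.8% and 21.0% of the NUCB2 level with 2DG alone, for CC, VST and Phen. The dimmer probe set (229838_at), at 3.49 to 5.00 throughout, was likewise highest with 2DG alone, by 1.38 over control. On it 39.4%, 56.3% and 51.8% of the 2DG level remained with CC, VST and Phen, so only CC passed 2-fold. The first of 2 RefSeq start windows of NUCB2, at chr11:17276489-17276788 (plus strand), holds a pair of CCAAT boxes in capitals, 108 to 104 and 76 to 72 bases before the start.
NUCB2: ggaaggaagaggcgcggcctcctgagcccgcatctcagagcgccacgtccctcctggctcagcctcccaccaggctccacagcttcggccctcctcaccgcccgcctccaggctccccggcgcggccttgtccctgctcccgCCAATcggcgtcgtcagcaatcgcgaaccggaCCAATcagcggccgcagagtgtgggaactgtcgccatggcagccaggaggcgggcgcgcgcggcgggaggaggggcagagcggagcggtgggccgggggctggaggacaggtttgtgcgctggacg
The ER stress response element, in which CCAAT and CCACG are separated by 9 bases, was not found in either NUCB2 window, and 0.0769% of all windows hold it.

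S100P was high with CC whether or not 2DG was present, as was STC2 on its brighter probe set. With VST alone the 2 genes differed, at 3.13 from control for S100P and −0.38 for STC2 on that probe set. Probe set 204351_at gave 6.40 with 2DG+CC, 3.38 with 2DG+VST, 3.73 with 2DG+Phen and 6.01 with 2DG alone. In normal medium it gave 6.73 with CC, 6.62 with VST, 4.44 with Phen and 3.49 in control. The 4 arrays above 6 were both CC arrays, VST in normal medium and 2DG alone, and no array lay between 4.44 and 6.01. The differences from control were 2.52 in 2DG (5.73-fold), 3.24 with CC (9.46-fold), 3.13 with VST (8.75-fold) and 0.96 with Phen. From 2DG alone, S100P differed by 0.39 with CC (−0.65 on the poly-A scale), −2.63 with VST and −2.27 with Phen. The array medians were 3.23 with 2DG+VST and 3.16 in control, close to the S100P levels there.

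S100P was the only gene of the 5 with a promoter window whose window held one of the 4 stress motifs searched. These were TGATGNAA, the core of the C/EBP-ATF response element that ATF4 binds (3.62% of all windows), the cAMP response element TGACGTCA (1.85%), the UPR element TGACGTGG (0.729%) and the ER stress response element above, each read on both strands. The window at chr4:6693628-6693927 (plus strand) carries TGATGNAA on the opposite strand, 123 to 116 bases before the start, and TATAAA at 28 to 23 bases, both in capitals and not overlapping.
S100P: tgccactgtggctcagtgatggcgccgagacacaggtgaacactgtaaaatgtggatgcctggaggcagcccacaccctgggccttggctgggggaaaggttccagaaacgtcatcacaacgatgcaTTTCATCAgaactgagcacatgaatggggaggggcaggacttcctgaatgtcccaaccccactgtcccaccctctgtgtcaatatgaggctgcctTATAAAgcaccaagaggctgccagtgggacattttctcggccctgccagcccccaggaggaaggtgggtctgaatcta
A match is a run of letters and was not tested as a site. The windows of GDF15, STC2, NUCB2 and TNFSF15 did not hold any of these 4 motifs, which says only that these letters are not in those windows.

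**Figure D2:**
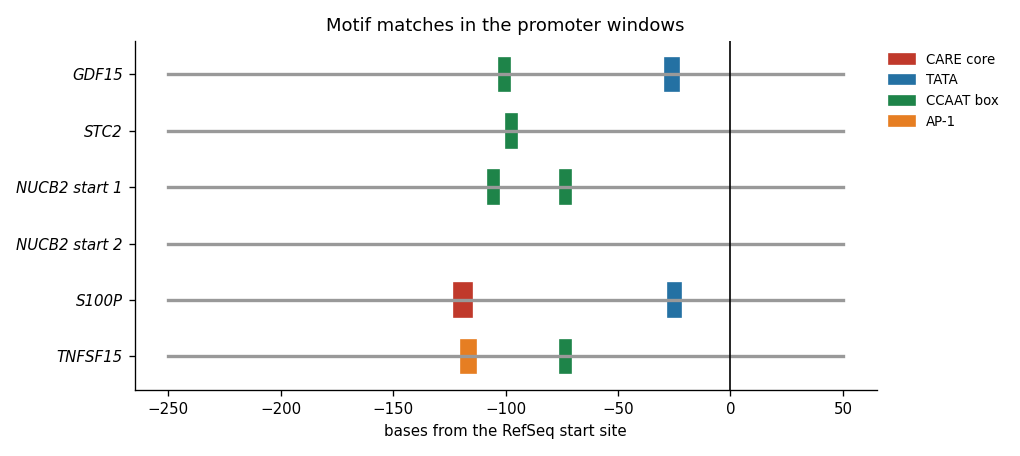
Position of each motif match (coloured boxes) in bases from the RefSeq start site (x axis, start at 0) for the 6 promoter windows of 5 genes (rows). The C/EBP-ATF core (CARE core) lies only in the S100P window, and the TATA box only in those of GDF15 and S100P.

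On its representing probe set, TNFSF15 was clearly above the array median only with VST or Phen in normal medium. This probe set (221085_at) gave 1.75 with 2DG+CC, 2.11 with 2DG+VST, 2.16 with 2DG+Phen and 3.08 with 2DG alone, all under the medians of their arrays. In normal medium it gave 3.14 with CC, just above its array median, 6.49 with VST, 4.98 with Phen and 2.73 in control, which was under it. With the control placed at its array median, TNFSF15 was at least 10.0-fold higher with VST and at least 3.54-fold higher with Phen. The −1.33 between 2DG+CC and 2DG alone counts as 2-fold lower below, although both values are under their array medians and give no fold.

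The other TNFSF15 probe set (229242_at) was under the array median on the 3 combination arrays only, and peaked at 5.98 and so missed the limit of 6. It read 2.91 with 2DG+CC, 2.93 with 2DG+VST, 2.77 with 2DG+Phen and 4.56 with 2DG alone, and 4.34, 5.98, 4.35 and 4.88 with CC, VST, Phen and control. It too was highest with VST, 1.09 above control, but with Phen it was −0.53 from control, against 2.26 on 221085_at. As measured, both probe sets were lower on each combination array than with the same compound alone. For 221085_at with CC no drop can be read, since 2DG+CC was under its array median and CC just above its own. The TNFSF15 window (chr9:114792481-114792780, minus strand) held TGANTCA, the AP-1 motif, 120 to 114 bases before its start, as did 7.71% of all windows. The gene spans chr9:114784635-114806039, so this window lies around a start inside the gene. The bases around the upstream end of the gene were not searched.

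Counted together, 5 of the 6 genes were past 2-fold above control with 2DG and none was below it, where 3.06% of all 8429 genes were higher and 1.90% lower. The median difference was 2.29 for the 6 genes and 0.01 for all genes. Since the genes were chosen by such values, the counts describe them and support nothing further. With CC in normal medium 4 were higher (INHBE, GDF15, STC2 and S100P) and none lower, against 3.88% higher and 2.70% lower of all genes. VST gave 4 higher (INHBE, GDF15, S100P and TNFSF15) and none lower, against 2.46% and 2.48%, and Phen 3 higher (INHBE, GDF15 and TNFSF15) and none lower, against 2.66% and 2.17%. These 4 comparisons share the control array.

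When a compound was added to 2DG, the calls turned to lower ones. With CC, INHBE, NUCB2 and TNFSF15 passed 2-fold downward from 2DG and none upward, where 25.4% of all genes were lower and 8.33% higher. VST gave 4 lower (INHBE, STC2, NUCB2 and S100P) and 1 higher (GDF15), against 20.0% lower and 4.09% higher, and Phen the same 4 lower and none higher, against 21.8% and 4.84%. The medians were −0.86, −2.27 and −2.26 for the 6 genes and −0.23, −0.18 and −0.26 for all genes. With 20.0% or more of all genes lower in each, these counts are read against that share. The 3 comparisons share the array with 2DG alone.

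2DG itself had the opposite sign for INHBE once a compound was present. INHBE differed by −4.81 between 2DG+CC and CC alone, by −4.98 between 2DG+VST and VST and by −3.18 between 2DG+Phen and Phen, against 2.94 without a compound. For GDF15 the same differences were −0.68, −0.61 and 0.49, against 2.07 without a compound, and on the poly-A scale those with CC and VST were −1.93 and −1.53, past 2-fold. For NUCB2 they were 0.58, 0.28 and 0.05, against 2.65. The NUCB2 values with a compound turned to −0.66, −0.64 and −0.41 when the arrays were put on the scale of the poly-A controls. On their representing probe sets, all 3 genes thus had a lower 2DG difference with each compound than without, and INHBE by the most. The dim GDF15 probe sets did not all share this. With a compound minus without, 229868_s_at gave 0.13 for Phen and 221576_at gave 0.20 for CC, the other values on them being negative.

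The brighter STC2 probe set differed by −0.84, −1.18 and −1.82 when 2DG was added to CC, VST and Phen, against 1.47 without a compound. The STC2 value with CC on this probe set was −2.08 on the poly-A scale. On the other STC2 probe set the differences were −0.75, −1.69 and 0.20, against 0.95, so the drop with Phen was not seen there. S100P differed by −0.33, −3.24 and −0.71, against 2.52, and on the poly-A scale its values with CC and Phen were −1.58 and −1.17, which are 2-fold calls. TNFSF15, with values under the array median set to that median, was lower by at least 9.54-fold when 2DG was added to VST and by at least 3.26-fold when added to Phen. Among the 6 genes, 2 (INHBE and TNFSF15) were at least 2-fold lower with 2DG+CC than with CC and none higher (26.4% and 8.67% of all genes), 4 were lower with 2DG+VST than with VST and none higher (16.6% and 3.74%), and 3 were lower with 2DG+Phen than with Phen and none higher (18.9% and 5.59%). The TNFSF15 call with 2DG+CC rests on a value under the array median, and with that median in its place no drop remains.

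**Figure D3:**
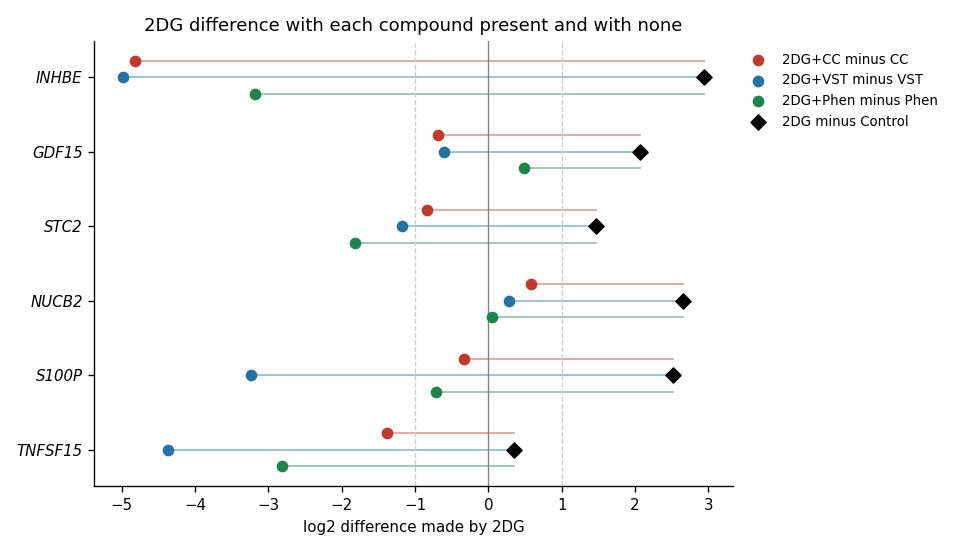
Log2 difference made by 2DG (x axis) for each gene (rows) in the presence of CC, VST or Phen (circles) and without a compound (black diamonds), each the difference of 1 array from 1 array, with dashed lines at 2-fold; TNFSF15 is drawn as measured, its 2DG values being under the array medians. INHBE lies at 2.94 without a compound and between −4.98 and −3.18 with one, and NUCB2 at 2.65 without and between 0.05 and 0.58 with one (−0.66 to −0.41 if scaled on the poly-A controls).

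Subtracting the 2DG difference without a compound from that with one gave INHBE the lowest value of all 8429 genes for each compound, −7.75 with CC, −7.92 with VST and −6.12 with Phen. These values rest on INHBE levels with 2DG and a compound that were not far above the array medians. S100P had 3 genes below it with VST (−5.76), 106 with Phen (−3.23) and 368 with CC (−2.85). No place is given for TNFSF15, since its values with 2DG and in control were under the array medians. STC2, on its brighter probe set, had 649 below it with CC (−2.31), 242 with VST (−2.65) and 100 with Phen (−3.29). NUCB2 had 868 below it with CC (−2.07), 349 with VST (−2.37) and 269 with Phen (−2.60). For GDF15 there were 411 genes below it with CC (−2.75), 229 with VST (−2.67) and 974 with Phen (−1.57). The 3 values of a gene share its control array and its 2DG array, so they are not independent of each other.

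**Figure D4:**
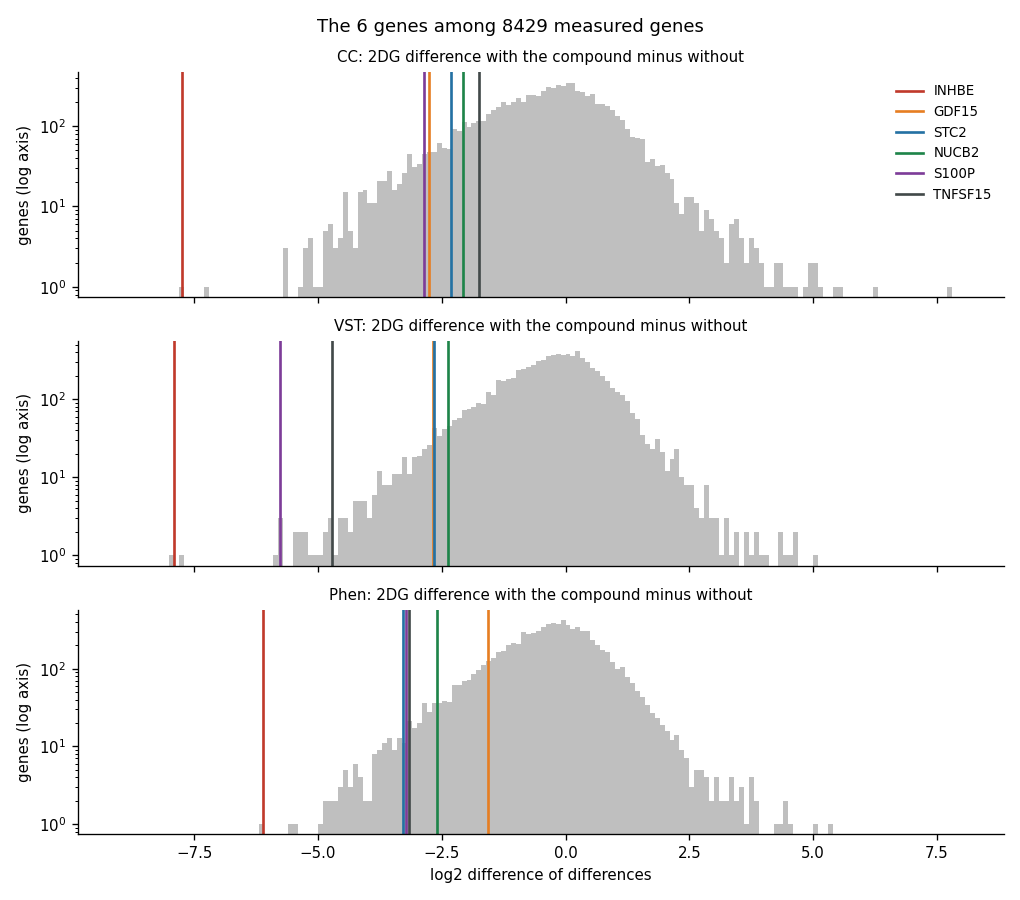
Number of genes (y axis, log scale) by the 2DG difference with a compound minus that without (x axis, log2), for CC (top), VST (middle) and Phen (bottom), over 8429 measured genes with the 6 genes as coloured lines (TNFSF15 as measured, resting on values under the array medians). INHBE is the leftmost gene in each panel, at −7.75, −7.92 and −6.12.

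The compounds can be set beside each other in each medium at the doses given, which differ between them. In normal medium, S100P was 0.11 higher with CC than with VST and 2.29 higher than with Phen. In 2DG it was 3.02 and 2.67 higher with CC than with VST and Phen. STC2 on its brighter probe set was 2.31 and 2.32 higher with CC in normal medium and 2.65 and 3.3 higher in 2DG, against −0.34 and 0.69, then 0.59 and −0.26, on the other. VST gave more INHBE (1.64) and GDF15 (1.61) than Phen in normal medium, while in 2DG the differences were −0.16 and 0.52. NUCB2 differed between the compounds by at most 0.61 in either medium.

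To see which other genes went with each one, the 7 differences from control were compared as a root mean square distance, in log2 units, over all measured genes. The nearest to INHBE were NMRAL2P (1.04), PCK2, the mitochondrial enzyme that makes phosphoenolpyruvate (1.11), and ASNS, asparagine synthetase (1.18). PCK2 was higher by 1.76 in 2DG and by 1.90, 3.0 and 1.95 with the 3 compounds alone, and within 0.11 of control with each compound in 2DG. The nearest to GDF15 were SAT1, the enzyme that acetylates polyamines (1.01), DDIT3, which codes for CHOP (1.04), and MXD1, a partner of MAX (1.15). SAT1 was 3.28, 3.24 and 3.47 above control with 2DG and CC, VST and Phen.

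NUCB2 had the closest neighbours of the 6, ALOX5AP at 0.197, the ER chaperone gene HYOU1 at 0.336 and REPS2 at 0.377. HYOU1 was higher by 2.11 in 2DG and by 0.51, 0.33 and 0.75 with 2DG and CC, VST and Phen. Nearest to STC2 were IKBKB (0.5), SH3RF3 (0.599) and ZNF559 (0.636). IKBKB, a kinase of the NF-kappaB pathway, differed from control by 0.36, −1.29 and −1.94 with 2DG+CC, 2DG+VST and 2DG+Phen, and these distances rest on the brighter STC2 probe set. S100P was nearest to NUPR1, a stress-inducible nuclear protein (0.885), DDIT4, an inhibitor of mTORC1 (0.919), and ERN1, the gene of IRE1 (0.955). For TNFSF15 no neighbour is given, since its control value and 4 of its 7 treated values were under the array medians. All distances share the control array.

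Between the 5 genes other than TNFSF15 the distances were larger than to these neighbours, the smallest being 1.6 between GDF15 and S100P and the largest 3.19 between GDF15 and STC2. INHBE and GDF15 were 2.57 apart, with 4624 genes nearer to INHBE than GDF15 was. The 6 genes thus did not form 1 profile across the 8 arrays, although 5 of them were higher in 2DG.

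Of 20 regulators and targets of ATF4 and CHOP, all were measured and 15 were at least 2-fold higher in 2DG with none lower, at a median of 1.37. SLC3A2, an amino acid transporter chain, was higher by 3.45, DDIT3 by 2.51 and ASNS by 2.48. With CC in normal medium 15 were higher and none lower (median 1.39), with VST 16 higher and 1 lower (1.87), and with Phen 6 higher and none lower (0.76). ATF4 mRNA itself was 0.76 higher in 2DG. Of all genes, 3.06%, 3.88%, 2.46% and 2.66% were higher and 1.90%, 2.70%, 2.48% and 2.17% lower in 2DG and with CC, VST and Phen. The counts in 2DG of the lists that follow stand against the same shares. This list was chosen with earlier results of these data known. The single-agent differences of INHBE and GDF15 had the sign of the list median, though with Phen only 6 of the 20 passed 2-fold.

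From 2DG alone, 8 of the 20 were lower and 5 higher with CC (median −0.55), and 11 lower and 2 higher with VST (−1.23) and with Phen (−1.30). Of all genes, 25.4%, 20.0% and 21.8% were lower and 8.33%, 4.09% and 4.84% higher with CC, VST and Phen, and the list counts that follow stand against the same shares. ATF3, a stress-induced transcription factor, was higher by 3.52 with CC, 2.83 with VST and 3.90 with Phen. GDF15 passed 2-fold upward only with VST (1.04). VLDLR, a lipoprotein receptor, differed by −2.22 with CC, TRIB3, a pseudokinase, by −3.45 with VST and SLC7A11, the cystine transporter, by −3.31 with Phen, and DDIT4 differed by −3.46 with VST. INHBE, at −4.45, −4.03 and −3.87, was lower than any of the 20 in each of the 3 comparisons.

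**Figure D5:**
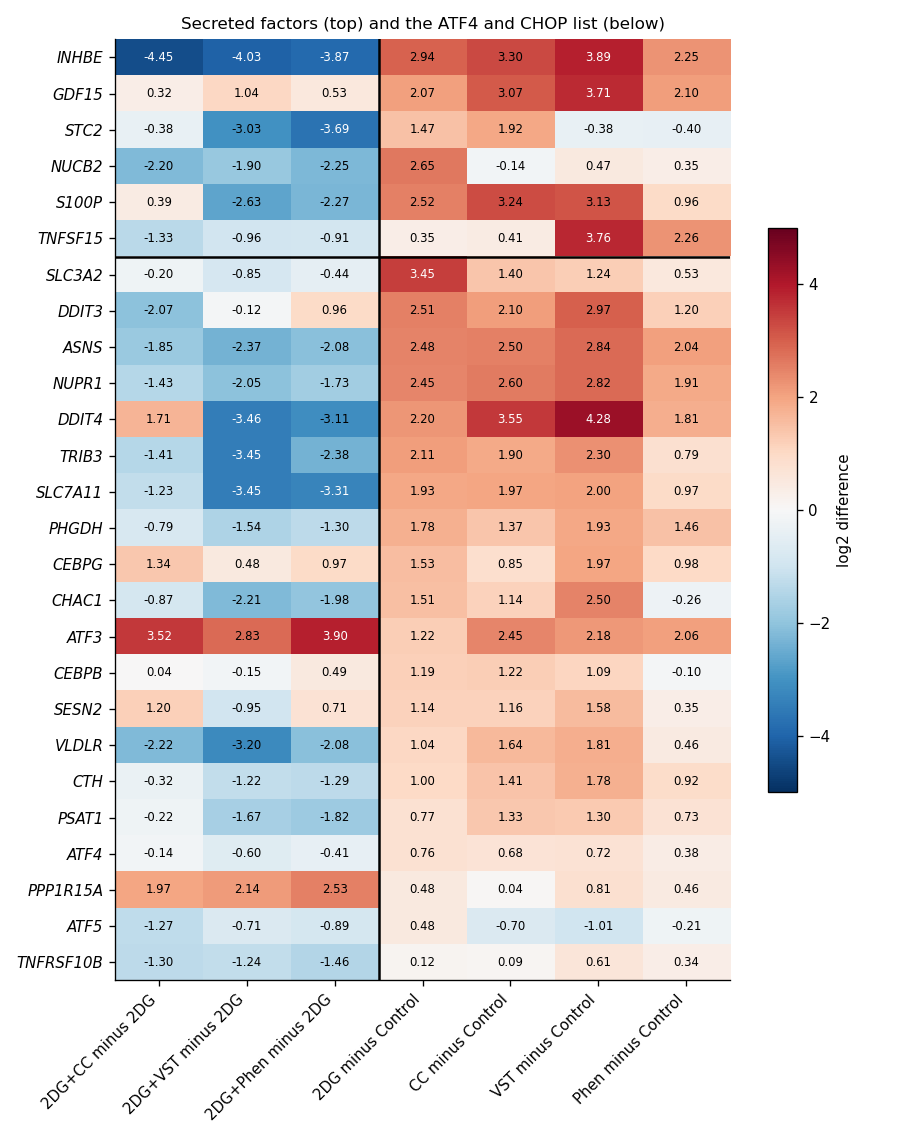
Log2 difference in 7 comparisons of 1 array with 1 array (columns) for the 6 secreted factors (above the line) and 20 regulators and targets of ATF4 and CHOP (below, ordered by 2DG minus control), with the value in each cell and red for higher. INHBE has the lowest cells in the 3 columns of compounds in 2DG, −4.45, −4.03 and −3.87. ATF3 is the highest of the lower block in the same 3 columns, 3.52, 2.83 and 3.90.

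The measured relatives of INHBE did not share its low levels on the combination arrays. Of 13 other ligands of the activin and TGF-beta group, 4 were measured, and none was 2-fold higher or lower in 2DG (median 0.33). INHBA, the beta A subunit, gave 7.52 with 2DG+CC, 5.56 with 2DG+VST, 6.09 with 2DG+Phen and 4.58 with 2DG alone, and 6.16, 5.07, 4.75 and 3.81 with CC, VST, Phen and control. It was thus highest on an array where INHBE was lowest, 2.94 above 2DG alone. Like INHBE, INHBA was above control with each single agent, by 0.77 with 2DG, 2.35 with CC, 1.26 with VST and 0.93 with Phen. Among 10 of 13 activin receptors and antagonists measured, BAMBI, a decoy receptor, was higher by 1.24 in 2DG and FST, follistatin, differed by −1.37. From 2DG alone, 3 were higher and 3 lower with CC, 2 and 5 with VST, and 1 and 3 with Phen, the lower counts with CC and Phen being near the shares of all genes (25.4% and 21.8%). ACVR1B, the type I activin receptor, differed by −3.43 with VST and −2.47 with Phen, but by 0.07 with CC. BAMBI differed by 2.69 with CC, 2.64 with VST and 1.68 with Phen.

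For GDF15, 2 of 8 genes of its receptor and maturation were measured, the proteases FURIN and PCSK7, and neither was 2-fold higher or lower in 2DG or in 2DG with a compound. The co-receptor RET stayed at 4.41 or under on every array and probe set, and GFRAL was not analysed here. Of 12 genes around stanniocalcin and calcium storage 11 were measured, and PAPPA2, a protease of the PAPP-A family, was the only one past 2-fold in 2DG (1.74 higher). In 2DG, 4 were lower than in 2DG alone with CC, 4 with VST and 5 with Phen, with none higher, against 25.4%, 20.0% and 21.8% lower of all genes. STC1, the relative of STC2, differed by −0.88 in 2DG and by −2.76 between 2DG+Phen and 2DG alone. PAPPA differed by −3.37 with CC, where it was under the array median, −2.16 with VST and −2.64 with Phen. NUCB1, the relative of NUCB2, was 0.91 higher in 2DG.

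Of 19 genes of the S100 family and its receptor 7 were measured, and none passed 2-fold in 2DG or between any combination and 2DG alone. The largest of them were S100A11, 0.75 higher in 2DG, and S100A2, 0.89, 0.83 and 0.83 higher than 2DG alone with CC, VST and Phen. AGER, the gene of the receptor RAGE, did not pass 3.26. Of 17 other TNF family ligands 15 had a probe set, and none of these reached the limit of 6 on any array. Of 17 TNF receptors and partners 7 were measured, none 2-fold higher or lower in 2DG, and TNFRSF25, the receptor of TL1A, did not pass 5.31. TNFRSF1A, the main TNF receptor, differed from 2DG alone by −3.60 with CC, −1.65 with VST and −1.63 with Phen, and over this list 4 were lower with CC, 2 with VST, and 2 lower and 1 higher with Phen, the last pair of lower counts being near the 20.0% and 21.8% of all genes.

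Other secreted factors of the stress response gave a mixed picture. Of 20 listed, 11 were measured, and in 2DG 3 were higher and 2 lower. CRELD2 (2.00), SDF2L1 (1.80) and MANF (1.24), proteins of the ER that assist folding, were the higher ones. From 2DG alone, 4 were higher and 2 lower with CC, 1 higher and 4 lower with VST, and 4 higher and 2 lower with Phen. Of all genes 8.33%, 4.09% and 4.84% were higher and 25.4%, 20.0% and 21.8% lower. The chemokine gene CCL20 was 5.59 higher with CC, but its level with 2DG alone, 2.93, was under the array median. In normal medium CCL20 was 5.26 above control with CC. CXCL8 was 3.13 higher with Phen, while VEGFA differed by −3.88 with VST and −2.73 with Phen. FGF21 and ADM2 did not pass 4.25 and 5.76 on any array.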

How the data were processed

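Total RNA of HT1080 cells, 1 culture per condition, was hybridized to 8 arrays. The deposited values are log2 signals that the authors made with RMA, which corrects background, normalizes between arrays and summarises probe sets. RMA software and version: not given in the sources used here. RMA levels of different genes are not comparable as amounts.

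No further step was applied before differences were taken. Control probe sets (62) were left out. Probe sets were named through the platform annotation, with symbols updated by gene ID. A gene was represented by its measured probe set with the highest mean. There were 10 comparisons of 1 array with 1 array, with no test. Promoter windows came from RefSeq (GRCh38.p14) and matched 5 of 6 genes, for TNFSF15 at a start inside the gene. The TATA, CCAAT and AP-1 motifs were added after the sequences were seen.

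Members, 9 gene lists, cut-offs and alternative settings were chosen with earlier results of these data known. The text names all 6 genes, up to 3 of each list with the largest difference in 2DG, up to 2 with the largest for each compound in 2DG, and the 3 nearest genes of each except TNFSF15. Partner genes named with their highest value, ATF4 and the per-array INHBA values were chosen after the values were seen. The 2-fold call was run on simulated data with gaps set well past the cut, which checks only that the calculation runs as meant. Ranks, differences between differences and the poly-A scaling were not checked in this way. Calculations used Python 3.11.15 with pandas 2.3.3 and numpy 2.4.6, and plots matplotlib 3.10.9.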

Additional observations from a re-analysis of the deposited data

Results flagged for a closer look

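For INHBE, the 2DG difference was positive without a compound and negative with each compound, both past 2-fold. The gap was −7.75 with CC, −7.92 with VST and −6.12 with Phen. The same reversal past 2-fold was seen for STC2 with VST (−2.65) and Phen (−3.29), on its brighter probe set, and for S100P with VST (−5.76). Each condition had 1 array, so these differences between differences were not tested.

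The poly-A controls, which belong to no comparison of genes, had a median above the control array by 1.36 with 2DG+CC, 0.93 with 2DG+VST and 0.76 with 2DG+Phen. Their part in the gene differences was not tested beyond the rescaling.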

How the results depend on the processing

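With 1 array per condition, no array could be left out. No paired analysis was possible because each condition has 1 array and no replicate number is shared. Counts of genes past 2-fold, higher and lower added together, stayed within 1.5 times under centring, quantile normalization and other probe sets. The same held with an expression limit of 5 and with no limit. The split could still change: for 2DG+VST against 2DG, quantile normalization gave 0 higher and 5 lower, against 1 and 4 as deposited. A limit of 7 left 4 genes and gave 2 past 2-fold with VST against control, 1 for 2DG+CC against CC and 2 for 2DG+VST against VST. For 2DG+CC against CC, the count of 2 became 4 at 1.5-fold, 1 at 3-fold and 5 on the poly-A scale. Without _x_at and _s_at probe sets GDF15 had no measured value.

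Called differences changed sign for STC2 between 2DG+Phen and Phen on its second probe set (0.20), and for TNFSF15 with Phen against control with no expression limit (−0.53), which selects its other probe set. Quantile normalization put GDF15 at 0.96 and TNFSF15 at −1.05 for 2DG+VST against 2DG. On its representing probe set, TNFSF15 was under the array median on 5 of 8 arrays, between which no change could be read.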
